A study of Mus musculus with 16 samples.

Results

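The window studied here covers chromosome 11 from 69500000 to 72500000 on the mouse build mm8 and is labelled for the Nlrp1 genes. It was chosen from the measured values, because the Balb/C lines stood far below the C57BI6 lines over a short stretch in its middle. Its members are the 410 array probes that start within those bounds, out of 233212 probes placed on the numbered chromosomes, X and Y. The core stretch, from 70987724 to 71109796, holds 11 of them over 122 kb. The left flank holds 260 probes and the right flank 139, at median spacings of 5136 and 7269 bases, and the largest gap between probe starts in the window is 47.9 kb.

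The study measured the DNA copy number of syngeneic mouse tumour lines, which grow in immunocompetent mice of their own strain and serve as models for immunotherapy research. DNA of 1 in vitro sample of each line, labelled with Cy5, was hybridised on a 2-colour array against a commercial mouse genomic DNA labelled with Cy3, so the log2 ratio is the line over the reference. The labels do not give the strain of the reference. No line was treated, and no normal tissue of these strains was analysed here, so each strain is represented by tumour DNA alone.

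The 12 arrays of C57BI6 lines, spelled as in the labels, comprise MC38 (colon), LL2 (lung), 4 arrays of the melanoma B16, Hepa1-6 (liver), PAN02 (pancreas), TRAMPC1 and TRAMPC2 (prostate), EL4 (lymphoma) and ID8 (ovary). The B16 arrays are B16F0 ECAC, B16F0 ATCC, B16F10 NCI and B16F10 ATCC. Sublines were averaged, which left 8 C57BI6 families. The 3 Balb/C lines are CT26 (colon), 4T1 (breast) and Renca (kidney). P815, a mastocytoma line, is the only DBA/2 line, so a difference of P815 may belong to the strain, to the tumour or to the array, and these cannot be told apart.

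Nlrp1 proteins are sensors of the innate immune system. When activated they nucleate an inflammasome, a complex that activates the protease caspase-1, which matures interleukin-1 beta and can kill the cell by pyroptosis. Mice carry several neighbouring copies of the gene, and variants of Nlrp1b among inbred strains set whether macrophages die after exposure to anthrax lethal toxin. In the RefSeq gene table used here (GRCm38.p6), Nlrp1a, Nlrp1b and the pseudogene Nlrp1c-ps follow one another. Dhx33 (an RNA helicase), Derl2 (endoplasmic reticulum associated degradation), Mis12 (kinetochore assembly) and 6330403K07Rik precede them, and Wscd1, Aipl1, Pimreg and Pitpnm3 follow.

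The 2 promoters below are shown to let the likeness of neighbouring gene copies be seen. They are RefSeq sequences on GRCm38.p6, written 5′ to 3′ as the sequence table gives them. The table holds 2 promoters of Nlrp1b, and the one closer to that of Nlrp1a is printed; the other, at chr11:71201407-71201706, aligned to it over 28 columns only. The promoter of Nlrp1a lies at chr11:71144655-71144954 and the printed one of Nlrp1b at chr11:71230684-71230983, both on the minus strand. In their best local alignment of 278 columns, 248 bases were identical, 26 differed and 4 were gaps, an identity of 89.2%. Capitals mark the aligned bases that differ.
Nlrp1a: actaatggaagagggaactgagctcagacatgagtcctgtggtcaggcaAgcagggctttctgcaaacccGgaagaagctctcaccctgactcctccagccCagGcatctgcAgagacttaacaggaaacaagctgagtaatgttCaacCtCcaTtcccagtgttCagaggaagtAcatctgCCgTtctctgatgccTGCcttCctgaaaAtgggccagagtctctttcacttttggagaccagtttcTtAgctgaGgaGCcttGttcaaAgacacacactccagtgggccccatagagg
Nlrp1b: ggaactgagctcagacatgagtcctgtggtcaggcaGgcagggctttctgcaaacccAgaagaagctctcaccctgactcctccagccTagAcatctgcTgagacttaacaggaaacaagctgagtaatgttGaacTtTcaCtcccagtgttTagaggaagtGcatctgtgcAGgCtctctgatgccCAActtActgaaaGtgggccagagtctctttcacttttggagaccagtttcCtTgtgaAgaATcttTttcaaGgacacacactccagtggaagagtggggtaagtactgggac
The probes are placed on mm8 and no probe was placed against these sequences. No file gives the gene of a probe, so whether the core stretch holds the Nlrp1 genes was not tested.

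The arrays were not of even spread. The autosomal SD was 0.64 on the P815 array and ran from 0.42 (Hepa1-6) to 0.54 (B16F0 ATCC) on the others. P815 had 19 flank probes at or below -1, against 0 to 5 on each other array. The comparisons below assume that P815 varies like the families, and whether it does was not tested. Between 99.5% and 99.98% of autosomal probes had a line signal well above background, and the log2 noise from probe to probe was 0.22 to 0.41. Each line had 1 array, so the p-values measure the spread between lines, and precision is limited by how many arrays there are. The arrays labelled Hepa1-6 and PAN02 correlated at 0.99 over 2408 bins of 1 Mb, against at most 0.56 for any other pair of different families. Counted as 1 family they left 42 window probes called in P815 against C57BI6, the same number as with 2, and 26 in P815 against Balb/C, against 29. All Balb/C lines were scanned in the first of 2 batches (6 arrays) and P815 in the second (10 arrays). B16F10 ATCC was low at probes that were also low in P815, as described with the flanks. Without that array the window counts were 42 and 29.

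The C57BI6 lines stood above the reference over the core, and the Balb/C lines far below it. The mean over the 11 probes was 1.03 ± 0.073 (SD, n = 8 families) in C57BI6, which is a 2.04-fold ratio, and -3.66 ± 0.052 (SD, n = 3 lines) for Balb/C. These levels chose the window and are given as a description. The lowest C57BI6 array was Hepa1-6 at 0.94 and the highest LL2 at 1.18. CT26 stood at -3.60, 4T1 at -3.70 and Renca at -3.68. The groups did not overlap. Most of the Balb/C signals behind these means were not well above background, so the spread among the 3 lines is not measured. Without LL2 the C57BI6 mean was 1.01 ± 0.044 (SD, n = 7). The C57BI6 arrays ran from 0.94 to 1.07 in the first scan batch (3 arrays) and from 0.95 to 1.18 in the second (9 arrays).

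**Figure D1:**
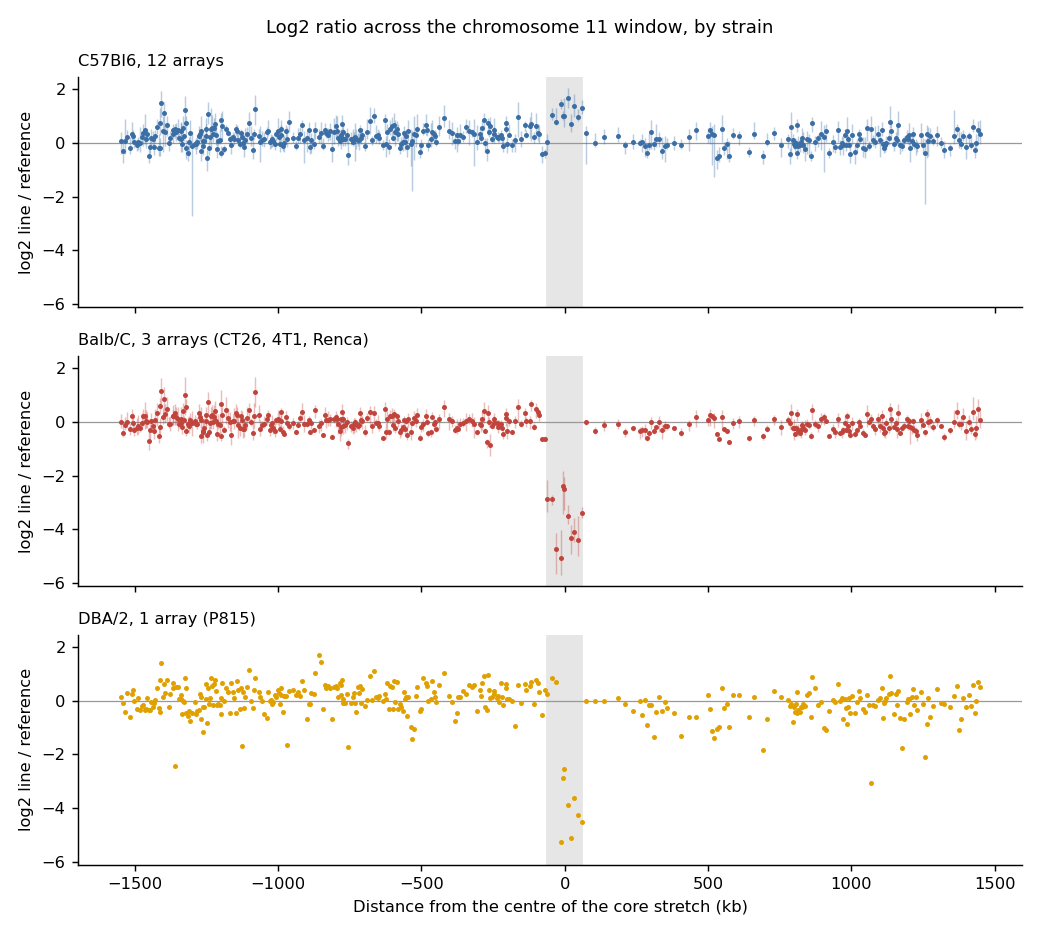
Log2 ratio of line over reference for the 410 window probes against distance from the centre of the core (kb), with 1 panel per strain. Points are the mean over the arrays of the strain and bars the range over those arrays; the core is shaded. The core stands above the reference in C57BI6 (mean 1.03) and below it in Balb/C (-3.66), and P815 is low over 8 of its 11 probes.

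The strain difference lay in the line channel. Over the core the reference signal stood at -0.95 ± 0.042 (SD, n = 8) in log2 against the autosomal median of its array on the C57BI6 arrays, at -0.96 ± 0.025 (SD, n = 3) on the Balb/C arrays and at -0.95 on the P815 array. The line signal stood at 0.082 ± 0.099 in C57BI6 (SD, n = 8), at -4.61 ± 0.038 in Balb/C (SD, n = 3) and at -3.70 in P815. The reference DNA was thus measured alike on all arrays, and it was well above background at each core probe on each of the 16 arrays.

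**Figure D2:**
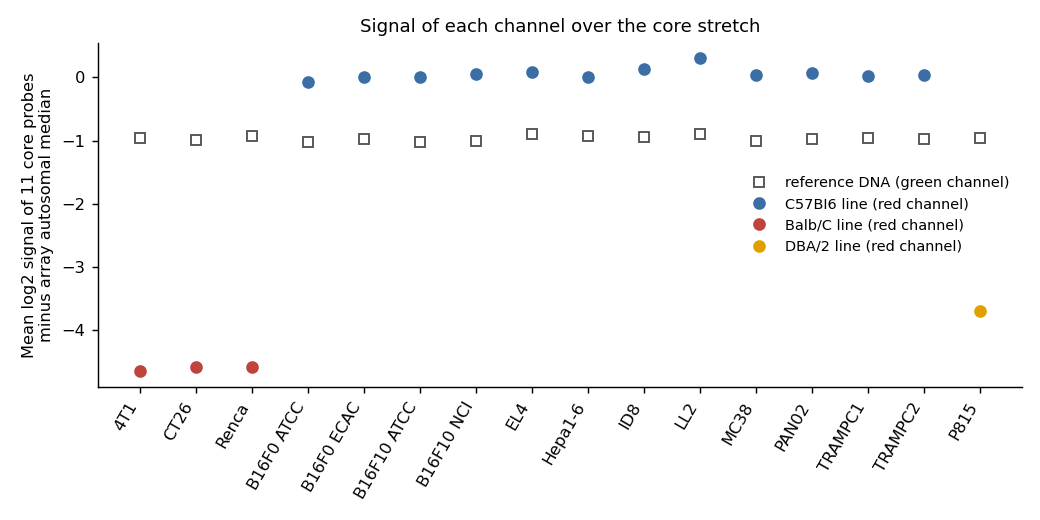
Mean log2 signal of the 11 core probes minus the autosomal median of the same array, for each array. Squares are the reference channel and circles the line channel. The squares sit near -0.95 on each array, while the circles sit near 0 in C57BI6, near -4.6 in the Balb/C lines and at -3.70 in P815.

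Where a line signal was not well above background, the ratio gives only a bound. The bound used here sets the mean of the bright group against the dim line, and it is written as "at least". The dim signal is raised to a floor, the lowest signal well above background on that array. At 71048184 the P815 signal of 84.0 was dim although it lay above the P815 floor of 79.6. The same held for CT26 at 71003753, with a signal of 89.1 and a floor of 88.5. The floor can thus lie below the local limit of detection, so the bounds are approximate and may be too high. Line signals failed the test of being well above background at 10 of the 11 core probes in CT26, at 7 in 4T1, at 6 in Renca and at 8 in P815, and at none in the C57BI6 arrays. On this scale the C57BI6 families were at least 14.04-fold above the Balb/C lines over the core. At single probes the ratio ran from 7.58-fold at 70987724, where all 3 Balb/C lines were measured, to at least 28.5-fold at 71016992, where 1 of them was.

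P815 divided the core. At the first 3 core probes it lay with the C57BI6 lines, and at the other 8 it lay with the Balb/C lines. The mean over the first 3 was 0.59 in P815, 0.62 ± 0.11 in C57BI6 (SD, n = 8) and -3.50 ± 0.13 in Balb/C (SD, n = 3). Over the other 8 it was -4.0 in P815, 1.18 ± 0.067 in C57BI6 (SD, n = 8) and -3.72 ± 0.12 in Balb/C (SD, n = 3). The split was set at the edge of the P815 segment, after its values were seen, so these means are a description. The core bounds come from the Balb/C lines set against the C57BI6 families, and the P815 mean over the core was known when the window was chosen.

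At the first core probe, 70987724 to 70987783, the log2 ratio was 0.25 in P815, -2.18 in CT26, -3.08 in 4T1 and -3.37 in Renca. The C57BI6 families ran from -0.26 to 0.31 with a median of -0.0024, near the reference. All 3 Balb/C lines were well above background here, with processed intensities of 231, 121 and 102, against 932 to 1238 in the C57BI6 arrays. The Balb/C value at this probe is therefore a measured low level and not a bound.

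At the second core probe, starting at 71003753, P815 stood at 0.83, CT26 at -3.09, 4T1 at -2.71 and Renca at -2.87. The C57BI6 families ran from 0.83 to 1.30 with a median of 0.99. P815 lay just below the lowest C57BI6 family and at least 3 log2 units above each Balb/C line. At the third, starting at 71016992, P815 stood at 0.69, CT26 at -5.67, 4T1 at -4.38 and Renca at -4.15, and the C57BI6 families ran from 0.66 to 1.30 with a median of 0.71. LL2 set that upper end, and the other 7 families lay between 0.66 and 0.81.

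At the fourth core probe, starting at 71035484, P815 fell to -5.25. CT26 stood at -4.04, 4T1 at -5.46 and Renca at -5.71, and the C57BI6 families ran from 1.28 to 1.62 with a median of 1.43. The processed intensity of P815 was 16.8 here and 1874 at the third probe, against a reference of 608 and 1104. P815 and the Balb/C lines were all below the level that counts as well above background, so their order at this probe is not measured.

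At the fifth and sixth core probes, starting at 71041927 and 71048184, part of the Balb/C signal was measurable. At the fifth, 4T1 stood at -1.85 and Renca at -1.92, both well above background, while CT26 at -3.44 and P815 at -2.86 were not. At the sixth, 4T1 stood at -2.07 and Renca at -2.13, again well above background, while CT26 at -3.27 and P815 at -2.53 were not. The C57BI6 families ran from 0.83 to 1.07 at the fifth and from 0.81 to 1.68 at the sixth, where LL2 was again the highest.

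The remaining 5 core probes start at 71060131, 71072281, 71079651, 71094378 and 71109737. There neither P815 nor any Balb/C line was well above background. P815 ran from -5.10 at 71072281 to -3.64 at 71079651. The Balb/C means ran from -4.41 ± 0.80 at 71094378 to -3.41 ± 0.21 at 71109737 (SD, n = 3). The C57BI6 means ran from 0.71 ± 0.19 at 71072281 to 1.71 ± 0.21 at 71060131 (SD, n = 8). The Balb/C lines and C57BI6 families did not overlap at any of the 5, but these levels had chosen the core. Over all autosomal probes every Balb/C line lay below every C57BI6 family at 2.77%.

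**Figure D3:**
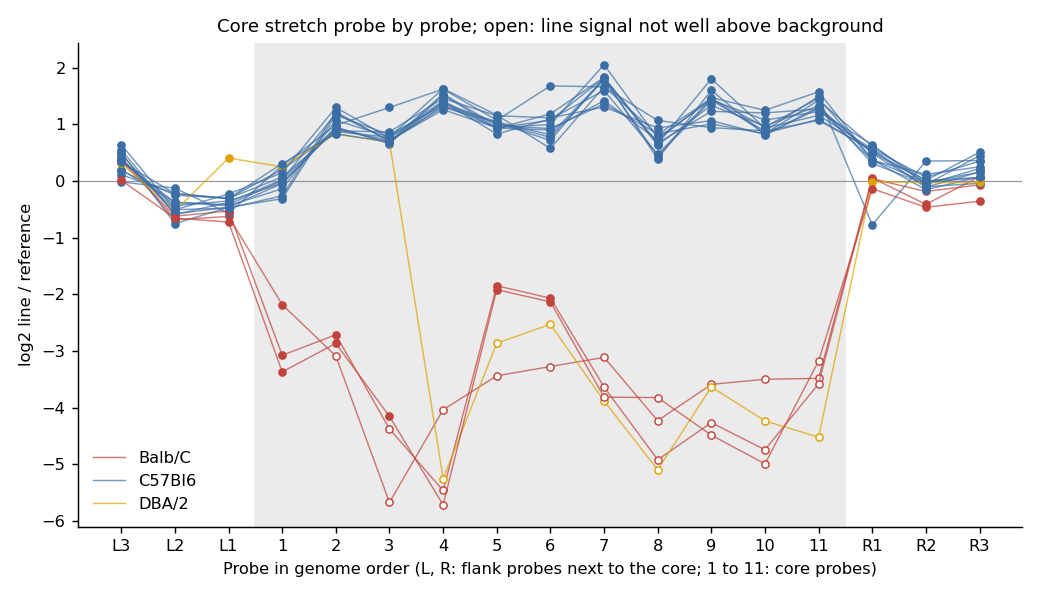
Log2 ratio of each of the 16 arrays at the 11 core probes (shaded) and at the 3 probes on each side, in genome order. Open circles mark a line signal that was not well above background. P815 follows the C57BI6 lines through the third core probe (0.69) and the Balb/C lines from the fourth (-5.25) onwards.

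P815 was then tested against the C57BI6 families with limma over 220233 autosomal probes, the lone P815 array being assumed to vary like the families. Of the 11 core probes, 8 were lower in P815 after Benjamini-Hochberg adjustment and 0 were higher. Over all autosomal probes 5.61% were called, 4.76% lower and 0.842% higher. The first 3 core probes were not among those called. At the 8 others P815 was not well above background, so p-values there rest on dim signals and are not given. The C57BI6 levels had helped choose the core, and the P815 core mean was known. The core counts are therefore a description, with no test. The bound at these 8 ran from at least 8.09-fold lower at 71094378 to at least 24.5-fold lower at 71060131. At the first 3 probes the differences were 0.20 ± 0.31, -0.21 ± 0.23 and -0.10 ± 0.37 (SE). With SEs of this size, the values do not show equal levels. With the normexp background correction, which narrowed the autosomal SD of P815 from 0.64 to 0.17, 0 window probes were called by limma (7 had an unadjusted p under 0.05), against 42 (72).

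Against the Balb/C lines P815 was high at the first 3 core probes. The low Balb/C values there had chosen the core, so these differences are a description, with no test. At 70987724, where all 3 Balb/C lines were measured, P815 was 8.73-fold above them. At 71003753 it was about 13.2-fold above, with 2 Balb/C lines measured and the dim CT26 signal taken as it stood, above its floor. At 71016992 it was at least 26.6-fold above, with 1 Balb/C line measured. At 6 of the other 8 probes neither P815 nor any Balb/C line was well above background, so no difference could be measured there. These include 71109737, whose difference of -1.11 rests on dim signals alone, although it is among the core calls counted below. At 71041927 and 71048184 P815 was dim and 2 Balb/C lines were measured. Over the window 29 probes were called in P815 against Balb/C, 4 of them in the core, and over all autosomal probes 4.03% were called, 0.772% higher and 3.26% lower. With normexp 0 window probes were called by limma (12 had an unadjusted p under 0.05), against 29 (57).

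The edges of the low stretch were placed between neighbouring probes. The Balb/C stretch began between 70979676 and 70987724, a gap of 8.05 kb, in each of the 3 lines. The P815 stretch began between 71017051 and 71035484, a gap of 18.4 kb. Both ended between 71109796 and 71124184, a gap of 14.4 kb. The Balb/C bounds are those of the core, which these Balb/C values had chosen. The left P815 bound was taken from the change point search, which sets segment edges on each array alone. That search placed segments from 70987724 to 71109796 in CT26, 4T1 and Renca and from 71035484 to 71109796 in P815. The same values were used both times, so the match is no further support for the edges. The P815 segment held 8 probes over 74.3 kb at -4.0 ± 0.35 (SE over probes). The stretch that was low in Balb/C and not in P815 thus held 3 probes over 29.3 kb.

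A separate high segment over the core was found on 2 C57BI6 arrays, B16F0 ECAC at 1.09 ± 0.068 and B16F10 NCI at 1.13 ± 0.10 (SE over 10 probes). In both it ran from 71003753 to 71109796 and left out the first core probe. The other 10 C57BI6 arrays had core means from 0.94 to 1.18 and no separate segment. On profiles simulated at the median noise of the arrays, the search recovered 0 of 20 planted segments of 10 probes at 1. The missing segments thus say nothing about arrays at that noise or above. Quieter arrays, such as EL4 (log2 noise 0.26), were not simulated.

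Of the 3 probes on each side of the core, 1 was called in P815. On the left, 70959938 stood at 0.31 in P815, 0.35 ± 0.19 in C57BI6 (SD, n = 8) and 0.26 ± 0.22 in Balb/C (SD, n = 3). The probe next to the core, 70979617 to 70979676, was the one called, at 0.41 in P815, -0.39 ± 0.10 in C57BI6 (SD, n = 8) and -0.63 ± 0.097 in Balb/C (SD, n = 3). P815 was higher there by 0.80 ± 0.22 against C57BI6 and by 1.03 ± 0.23 against Balb/C (SE, limma adjusted p = 0.031 and 0.012). On the right, the first probe, 71124184, stood at -0.012 in P815 and -0.014 ± 0.11 in Balb/C (SD, n = 3). The C57BI6 families lay between 0.31 and 0.64 there, apart from LL2 at -0.77. No probe of the 3 on the right was called in P815 against either strain.

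Outside the core, P815 differed from the C57BI6 families at 34 of the 399 flank probes, 31 lower and 3 higher. The lower calls made up 5.38% of the left flank and 12.2% of the right flank, against 4.76% of all autosomal probes, and the higher calls 1.15% and 0%, against 0.842%. The left share is thus near that of the autosomes. P815 lay below every C57BI6 family at 142 of the 399 flank probes, a larger share than the 17.0% of all autosomal probes. The lower differences had a median of -1.30 and ran from -2.90 to -0.80 apart from 72115978, where P815 was not well above background and only a bound is known. In 20 of the 31 the call stood alone, and the other 11 lay in 5 runs of neighbouring called probes, the longest of 3 probes. With each line centred on its own flanks, 32 window probes were called lower and 4 higher, against 39 and 3.

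The 2 flank probes lowest in P815 against C57BI6 were 72115978 and 69690931, whose order is not measured. The first, 72115978 to 72116037, stood at -3.06 in P815 against 0.17 to 0.98 in the C57BI6 families and -0.086 to 0.27 in the Balb/C lines. P815 was not well above background there. It was at least 7.36-fold below C57BI6 and at least 5.58-fold below Balb/C. The p-values at this probe rest on a dim signal and are not given. The second, 69690931, stood at -2.42 in P815 against 0.19 to 0.70 in C57BI6 and -0.11 to 0.66 in Balb/C, a difference of -2.90 ± 0.26 or 7.46-fold from C57BI6 (SE, limma adjusted p = 1.6e-07). At these 2 probes P815 lay well outside the range of all other arrays.

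Further single probes were low in P815 against both strains. At 69922319 it stood at -1.70 against 0.23 ± 0.10 in C57BI6 (SD, n = 8) and 0.067 ± 0.32 in Balb/C (SD, n = 3), and at 70080619 at -1.66 against 0.13 ± 0.17 and -0.051 ± 0.16. At 72226090 it stood at -1.75 against -0.13 ± 0.16 and -0.25 ± 0.13. At these 3 probes the differences from C57BI6 were -1.93, -1.79 and -1.62 (limma adjusted p = 1.5e-05, 3.5e-05 and 9.4e-05), and those from Balb/C were -1.77, -1.61 and -1.50 (limma adjusted p = 0.00017, 0.00045 and 0.00076). At 71740826 P815 stood at -1.82 against -0.54 ± 0.13 in Balb/C (SD, n = 3), a difference of -1.28 ± 0.24 (SE, limma adjusted p = 0.0023).

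The runs of neighbouring low probes in P815 were short. From 70511489 to 70523586, 3 probes over 12.1 kb had a mean of -1.16 in P815, 0.21 ± 0.21 in C57BI6 (SD, n = 8) and -0.10 ± 0.21 in Balb/C (SD, n = 3). From 71562915 to 71569852, 2 probes had a mean of -1.25 in P815, 0.39 ± 0.20 in C57BI6 and 0.16 ± 0.18 in Balb/C. The other 3 runs, 71954488 to 71961809, 72226090 to 72233485 and 72304803 to 72311335, held 2 probes each, with P815 means of -1.04, -1.22 and -1.47. Each P815 signal in the 5 runs was well above background. The runs were not all particular to P815. In the run from 72226090 to 72233485, B16F10 ATCC was not low like P815 (-0.30 and -0.094). In each of the other runs it was low at 1 or more probes. It stood at -1.80 at 70515132, -1.27 at 71569794, -1.09 at 71954488 and -2.29 at 72304803.

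P815 was high at 1 pair of neighbouring flank probes. From 70191009 to 70199285 the mean was 1.56 in P815, 0.31 ± 0.18 in C57BI6 (SD, n = 8) and -0.11 ± 0.24 in Balb/C (SD, n = 3). At 70191009 alone P815 stood at 1.69 against -0.023 to 0.48 in the C57BI6 families and -0.42 to 0.048 in the Balb/C lines. P815 was 2.80-fold above C57BI6 and 1.84 ± 0.26 in log2 above Balb/C (SE, limma adjusted p = 0.00046 and 0.00013).

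Against the Balb/C lines 25 flank probes differed in P815, 19 lower and 6 higher. The lower calls made up 2.31% of the left flank and 9.35% of the right, against 3.26% of autosomal probes, and all 6 higher calls lay in the left flank, against 0.772% of autosomal probes called higher. Beside 70191009, 70199226 and 70979617, these were 69885840 (1.16 ± 0.29), 70264271 (0.98 ± 0.28) and 70554870 (0.94 ± 0.26, SE, limma adjusted p = 0.021, 0.049 and 0.042). P815 and the Balb/C lines were scanned in different batches, and with the batch as a block the window count went from 29 to 13, 7 lower and 6 higher, all 13 among the 29. Over the autosomes the count went from 8879 to 4657. The single probes at 69690931, 69922319, 70080619 and 72226090 kept their call under the block. So did 72115978, where the call rests on a dim P815 signal. Those at 72304803, 71569794, 71562915, 71961750, 69885840, 70264271 and 70554870 did not (limma adjusted p from 0.056 to 0.27). The differences themselves moved less: under the block 72304803 went from -1.69 to -1.45, 71569794 from -1.51 to -1.39, 71562915 from -1.32 to -1.07 and 71961750 from -1.11 to -1.05. The higher ones went from 1.16 to 1.14 at 69885840, from 0.98 to 0.86 at 70264271 and from 0.94 to 0.79 at 70554870.

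**Figure D4:**
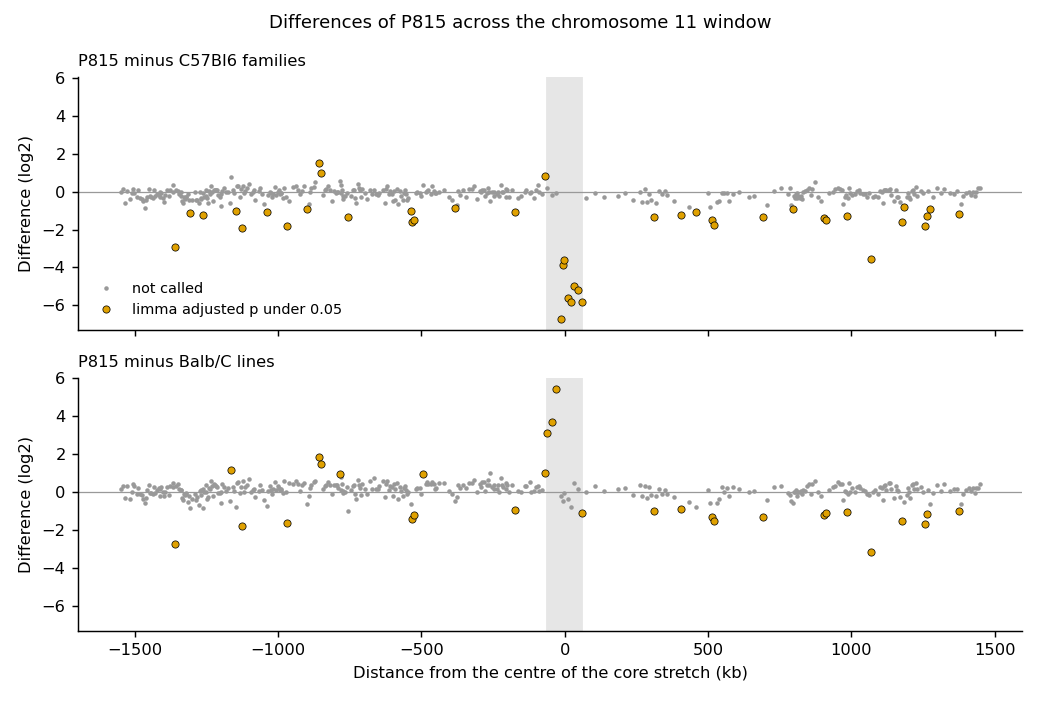
Difference in log2 ratio between P815 and the mean of the C57BI6 families (top) or the Balb/C lines (bottom) for each of the 410 window probes, against distance from the centre of the core (kb). Filled circles are probes with a limma adjusted p under 0.05, and the core is shaded. Against C57BI6, 8 core probes are lower, and against Balb/C the first 3 core probes are higher.

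The B16F10 ATCC array, labelled C57BI6, was low at several of the same flank probes. At 72304803 it stood at -2.29 and P815 at -2.08, while the other 3 B16 arrays stood at -0.84, -0.19 and -0.17. At 70515132 it stood at -1.80 and P815 at -1.44, with the other B16 arrays between 0.18 and 0.23. At 71569794 it stood at -1.27 and P815 at -1.39, with the other B16 arrays between -0.0093 and 0.53. At 71954488 B16F10 ATCC stood at -1.09 and P815 at -1.01, and B16F0 ECAC was low too, at -0.84, with the other 2 B16 arrays at 0.37 and 0.49. The 7 C57BI6 families other than B16 lay above 0 at the last 3 of these probes, between 0.068 and 0.69. This was noticed after the values were seen.

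To describe how far this went, a probe was counted as low where an array lay at least 1 below the median of the C57BI6 families, leaving out its own family for a C57BI6 array. P815 was low by this count at 25 flank probes, and B16F10 ATCC was low at 7 of those 25, against 0 or 1 for each of the other 11 C57BI6 arrays. Over all autosomes P815 was low at 9705 probes, and B16F10 ATCC at 22.9% of them, against 0.155% to 4.31% for the other C57BI6 arrays. Over all autosomal probes together B16F10 ATCC was low at 1.38%. The core was not among the shared positions: B16F10 ATCC had a core mean of 1.04, within the range of the other C57BI6 arrays. Neither 72115978 nor 69690931 was low in B16F10 ATCC (0.11 and 0.53). The part of what these arrays share in the P815 flank calls was not tested.

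The Balb/C lines differed from the C57BI6 families at all 11 core probes and at 5 flank probes, each lower in Balb/C. Over all autosomal probes 2.34% were called, 1.98% lower and 0.361% higher. Every Balb/C line lay below every C57BI6 family at all 11 core probes, at 64 of the 399 flank probes and at 2.77% of all autosomal probes. The rule used this contrast, so nothing is read from these counts. All 5 flank probes lie in the left flank. The largest was 70790005, at -0.88 ± 0.41 in Balb/C (SD, n = 3) against 0.62 ± 0.16 in C57BI6 (SD, n = 8), with P815 between them at 0.11. At 70087173 the means were -0.14 ± 0.17 and 0.86 ± 0.26, with P815 at 0.37. The other 3, 70383469, 70458162 and 70554870, differed by -0.68, -0.65 and -0.59. The values just outside and just inside the left bound of the core, which was set from this contrast, were -0.63 ± 0.097 in Balb/C against -0.39 ± 0.10 in C57BI6 at 70979617, and -2.87 ± 0.62 against 0.048 ± 0.19 at 70987724.

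The flanks gave the log2 ratio of each line around the core, relative to its autosomal median. Their median over 399 probes ran from -0.25 in Renca to 0.29 in ID8, with a median of 0.14 over the 16 arrays. No flank was near the level of the core in any array. The core mean minus the flank median was 0.84 ± 0.070 in C57BI6 (SD, n = 8), -3.59 ± 0.21 in Balb/C (SD, n = 3) and -2.80 in P815. A flank median at or past 0.3 in size was found on 2 arrays, both on the left side: ID8 at 0.35 ± 0.029 and TRAMPC2 at 0.34 ± 0.034 (SE of the median over probes). Within 500 kb of the core 7 arrays reached that level, so the number depends on the length taken.

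The left flank stood above the right flank on all 16 arrays. The difference ran from 0.033 in Renca to 0.29 in P815, with a median of 0.18, and was 0.17 ± 0.031 (SD, n = 8) over the C57BI6 families. All arrays share the reference DNA and the probe sequences, and the part of these in the difference was not tested. P815 had the lowest right flank outside the Balb/C lines, at -0.14 ± 0.060 (SE), below the C57BI6 families (0.018 to 0.16). Renca was low on both sides, at -0.24 ± 0.019 on the left and -0.27 ± 0.021 on the right (SE). CT26 stood at -0.045 and -0.17, and 4T1 at 0.19 and -0.033, so the low core lay on a different flank level in each Balb/C line.

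The change point search placed a further edge inside the window in 4T1. Its right flank lay at -0.043 ± 0.026 (SE over 126 probes) from 71124184 to 72393043. The segment to the left of the core was at 0.27 ± 0.016 and that beyond 72407260 at 0.24 ± 0.0051 (SE over probes). In 4T1 the left flank was 0.22 above the right, which is within the range of the C57BI6 arrays, where no such edge was placed. In CT26, Renca and P815 the segments next to the core ran past both ends of the window.

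**Figure D5:**
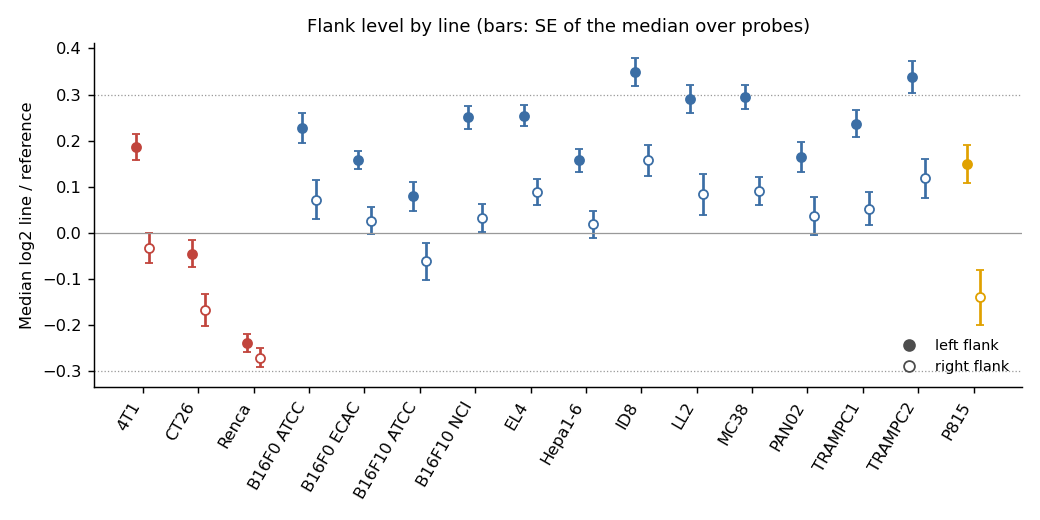
Median log2 ratio of the left flank (filled, 260 probes) and the right flank (open, 139 probes) for each array. Blue is C57BI6, red Balb/C and yellow DBA/2. Bars are the SE of the median over probes and dotted lines mark 0.3 and -0.3. The left flank lies above the right on all 16 arrays, and only ID8 (0.35) and TRAMPC2 (0.34) pass 0.3.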

How the data were processed

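Line DNA (Cy5, red) and reference DNA (Cy3, green) were measured on 16 Agilent arrays. Per the file headers, the authors' images were read with Agilent Feature Extraction 10.7.3.1, and the deposited processed intensities were background-subtracted, detrended and scaled linearly between dyes, with probe positions on mm8. The deposited log10 ratio matched the log2 ratio of these intensities within 0.001 for at least 99.9% of spots, and the authors' deposited log2 value table differed by at most 5.06e-05. Agilent Feature Extraction is also named in the submitters' processing notes.

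Spots marked as outliers were dropped, spots of a probe averaged, and log2 of red over green centred on the autosomal median of each array. Sublines were averaged into families. P815 was compared with C57BI6 families and Balb/C lines with limma 3.58.1 (R 4.3.3) over 220233 autosomal probes, with Benjamini-Hochberg adjustment and a threshold of 0.05. Each line is a single culture. Segments came from a change point search with Python 3.11.15. The named flank probes are the 10 largest called changes in each direction; those of the edges and of the low values shared with B16F10 ATCC were added after their values were seen. The members and lists were chosen with earlier results of these data known. Normexp used median spot and background signals, with an offset of 50, in place of the mean signals planned. On simulated data, limma was fitted to P815 against C57BI6 over 220233 probes. It recovered 8 of 50 probes planted at -1, 38 of 50 at -2 and 50 of 50 at -4, with 2 false calls. The simulated P815 was drawn with the mean and SD of the C57BI6 families, while the real P815 array had a wider spread. The false calls therefore do not give the false call rate of the real comparison.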

Additional observations from a re-analysis of the deposited data

Results flagged for a closer look

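Of 41 tests for a family far from the other C57BI6 families, 7 pointed to one, and chance gives about 1 in 20. LL2 was the family in 6 of them. At the core probe 71016992 LL2 stood at 1.30 and the others between 0.66 and 0.81, and at the core probe 71048184 at 1.68 and the others between 0.81 and 1.18. At 70264271 LL2 stood at 0.49 (others -0.070 to 0.15), and at 70790005 at 0.94 (others 0.39 to 0.65). Next to the core, LL2 stood at -0.77 at 71124184 (others 0.31 to 0.64) and at 0.35 at 71156203 (others -0.098 to 0.067). The B16 family stood at -0.30 at 70515132 (others 0.068 to 0.33), where B16F10 ATCC alone stood at -1.80.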

How the results depend on the processing

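No paired analysis was possible because the labels carry no replicate numbers and each line has 1 array. The normexp background correction left 0 window probes called in P815 against C57BI6 (5 over the autosomes), 0 against Balb/C (0 over the autosomes) and 10 in Balb/C against C57BI6, down from 42, 29 and 16. It moved the core mean to -0.74 in Balb/C, 0.51 in C57BI6, 0.19 in P815 over the first 3 probes and -0.14 over the other 8, and it turned P815 against Balb/C to 0.42 at 71109737, 0.0066 at 72115978, 0.035 at 72304803 and 0.25 at 71740826. Normexp changed the autosomal SD unevenly: it fell on 11 arrays, from 0.64 to 0.17 in P815 and from 0.44 to 0.096 in B16F0 ECAC, and rose on 5, as from 0.49 to 0.54 in MC38. Values that were not called changed sign too. With normexp P815 against C57BI6 turned to -0.017 at 70987724, and P815 against Balb/C to 0.52 at 71035484, 0.47 at 71041927, 0.47 at 71048184, 0.49 at 71060131 and 0.67 at 71072281. Centred on the flanks, P815 against C57BI6 turned to 0.042 at 71016992. Leaving out 1 Balb/C line turned P815 against Balb/C to 0.34 at 71035484 (without CT26, lowest -0.50 without Renca), to 0.18 and 0.14 at 71048184 (without 4T1 and without Renca, lowest -0.43 without CT26) and to -0.11 at 71094378 (without Renca). Against the flanks of the same line the core stood at -3.59 in Balb/C and 0.84 in C57BI6. With the scan batch as a block 13 probes were called in P815 against Balb/C, a block that is not a replicate pairing. Arrays with a flank at or past the level numbered 5 with mode centring, 7 with flanks of 500 kb, 9 at a level of 0.2 and 0 at 0.5, against 2. Leaving out 1 family or line at a time gave 39 to 44 calls in P815 against C57BI6, 22 to 31 against Balb/C, 13 to 16 in Balb/C against C57BI6, and a Balb/C core mean from -3.69 to -3.64. With each line centred on its flanks the lower and higher calls were 32 and 4, 22 and 7, and 13 and 1 in these comparisons, against 39 and 3, 20 and 9, and 16 and 0. Of 1146 values of single probes, 1051 kept direction and call, 78 lost the call (37 with normexp), 2 gained it and 15 changed sign. Signals not well above background limit the core in Balb/C and P815 to bounds.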
